A study of Mus musculus with 32 samples.

Results

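The 8 genes *Rspo2*, *Rspo3*, *Lgr4*, *Lrp5*, *Lrp6*, *Axin2*, *Lef1* and *Tcf7* belong to canonical Wnt signaling, from its secreted amplifiers to its DNA-binding proteins and a readout. They were taken by symbol from 31053 features counted by single-cell RNA-seq (scRNA-seq). All 8 passed the filter on low counts, which was set over all classes together, so that a gene can pass through the class in which it is high. Marrow of Diversity Outbred (DO) mice, a genetically mixed outbred stock, was grown in an osteogenic medium with ascorbic acid, β-glycerophosphate and dexamethasone, which gives mineralizing cultures of stromal cells on the way to osteoblasts (BMSC-OBs). The 77 mice were combined into 16 pools of 4 or 5 mice, all pools had the same treatment and no untreated group was included, and each pool was sequenced in 2 runs. The labels and methods used here give no age, and a pool mixes the cells of several genomes, so the replicate is the pool and every spread given is a spread between pools.

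In canonical Wnt signaling, a secreted Wnt protein joins a Frizzled receptor to the co-receptors LRP5 and LRP6, which stops the destruction of β-catenin, and β-catenin then enters the nucleus and acts with the DNA-binding proteins LEF1 and TCF7. R-spondins are secreted proteins that bind LGR4 and its relatives and keep the ligases RNF43 and ZNRF3 from removing Frizzled and LRP from the cell surface, so that a cell responds more strongly to Wnt. *Axin2* encodes part of the complex that destroys β-catenin, is itself switched on by β-catenin and is widely used as a readout of the pathway. In bone the pathway favors osteoblasts over adipocytes, loss of LRP5 gives low bone mass in people, and the osteocyte product sclerostin blocks LRP5 and LRP6.

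Of 107853 barcodes in run 1, 83668 cells remained after the filters on cells and doublets, and 32305 of them (38.6%) were placed in 6 mesenchymal classes by marker genes, none of which was one of the 8 members. The classes were late mesenchymal progenitor-like (LMP-like, 10730 cells, 16 pools with at least 20 cells), osteoblast progenitor-like (OBP-like, 4180 cells, 16 pools), osteoblast 1-like (OB1-like, 3041 cells, 15 pools), osteoblast 2-like (OB2-like, 3558 cells, 14 pools), osteocyte-like (Ocy-like, 2170 cells, 16 pools) and marrow adipogenic lineage precursor-like (MALP-like, 8626 cells, 16 pools). In each class the median over cells was above 0 for every one of its own markers, and the median summed level of the macrophage, granulocyte and T-cell marker lists was 0 in the 6 classes. The gate used the same lists, so these medians largely follow from it and are no check of the labels. The classes are ranges of a score and not sharp types, and between 5.02% (MALP-like) and 14.7% (OB1-like) of the cells of a class lay within 0.1 of the margin that sets it. In MALP-like cells the LMP list summed to a median of 13.0 UMIs per 10,000 against 81.5 in LMP-like cells, and in LMP-like cells the MALP list summed to 11.5 against 251 in MALP-like cells. The osteogenic list summed to 71.2 in LMP-like cells against 643 in OBP-like cells. Separation was weaker within the osteoblast lineage: the OB1 list summed to 55.2 in OBP-like and 76.5 in Ocy-like cells against 267 in OB1-like cells. The Ocy list summed to 14.0 in OB1-like cells against 38.6 in Ocy-like cells. *Sost*, which encodes sclerostin and was kept out of the gates, was at 4.71 ± 2.48 UMIs per 10,000 in OB1-like cells and 3.25 ± 1.81 in Ocy-like cells, so this osteocyte gene did not set the Ocy-like class apart from the OB1-like class. Pools held 53990642 to 100777353 UMIs in all, and the median of kept cells was lowest in pool 13 (2669 UMIs) and highest at 14713. Both runs of a pool held 98.2% of the barcodes, so that run 1 alone was used, and 3061 barcodes (2.84%) occurred in more than 1 pool.

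A level is given as UMIs of the gene per 10,000 UMIs of a class in a pool, as mean ± SD over pools, and differences between classes are log2 fold changes ± SE from edgeR's quasi-likelihood test on the summed counts, with the pool as a block and TMM scaling. Adjusted p-values are Benjamini-Hochberg values over 11861 genes, and a difference with an adjusted p of at most 0.05 is called. These scales can disagree: scaled to total counts, the median log2 fold change of all genes is 0.26 for MALP- against LMP-like cells (-0.00216 with TMM), -0.35 for OBP- against LMP-like cells (-0.01 with TMM) and 0.62 for MALP- against OBP-like cells (0.02 with TMM), so changes are given relative to the TMM scale. The counts are of 3′ ends, and they were used to compare a gene between classes and not one gene with another. In summed counts, fewer cells with RNA of a gene and less RNA per cell cannot be told apart.

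The number of members called differed between the comparisons, as did the share of all genes called. Between MALP- and LMP-like cells 7 of 8 members were called, 4 higher and 3 lower, where 73.1% of all genes were called. Between OBP- and LMP-like cells 7 of 8 were called (5 higher and 2 lower), against 73.9% of all genes, and between MALP- and OBP-like cells 7 of 8 (4 higher and 3 lower), against 80.7%. Among the osteoblast classes the members called were 5 of 8 for OB1- against OBP-like cells (background 50.1%), 4 of 8 for OB2- against OB1-like cells (56.1%) and 4 of 8 for Ocy- against OB1-like cells (32.9%). In the other 9 pairs of classes, 7 of 8 were called for OB1- against LMP-like cells (76.7% of all genes), 5 for OB2- against LMP-like (76.7%), 7 for Ocy- against LMP-like (76.2%), 6 for OB2- against OBP-like (60.8%) and 3 for Ocy- against OBP-like (54.9%). The remaining counts were 6 for Ocy- against OB2-like (55.1%), 8 for MALP- against OB1-like (78.5%), 8 for MALP- against OB2-like (79.7%) and 7 for MALP- against Ocy-like cells (78.1%). Against backgrounds of 32.9% to 80.7% a call says little on its own. With the limits on cells set on UMI counts in place of detected genes, 30 member differences over all pairs of classes were called in place of 91 of 120. *Axin2*, *Lef1* and *Tcf7*, which had 10, 12 and 12 of the 91 calls, gave no value, so the 2 counts cover unlike sets of members. The size and direction of each difference and the number of pools that share it carry the description. How many of all genes go the same way in every pool, or do not overlap between classes, was not counted. Such patterns may be common among all genes too.

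**Figure D1:**
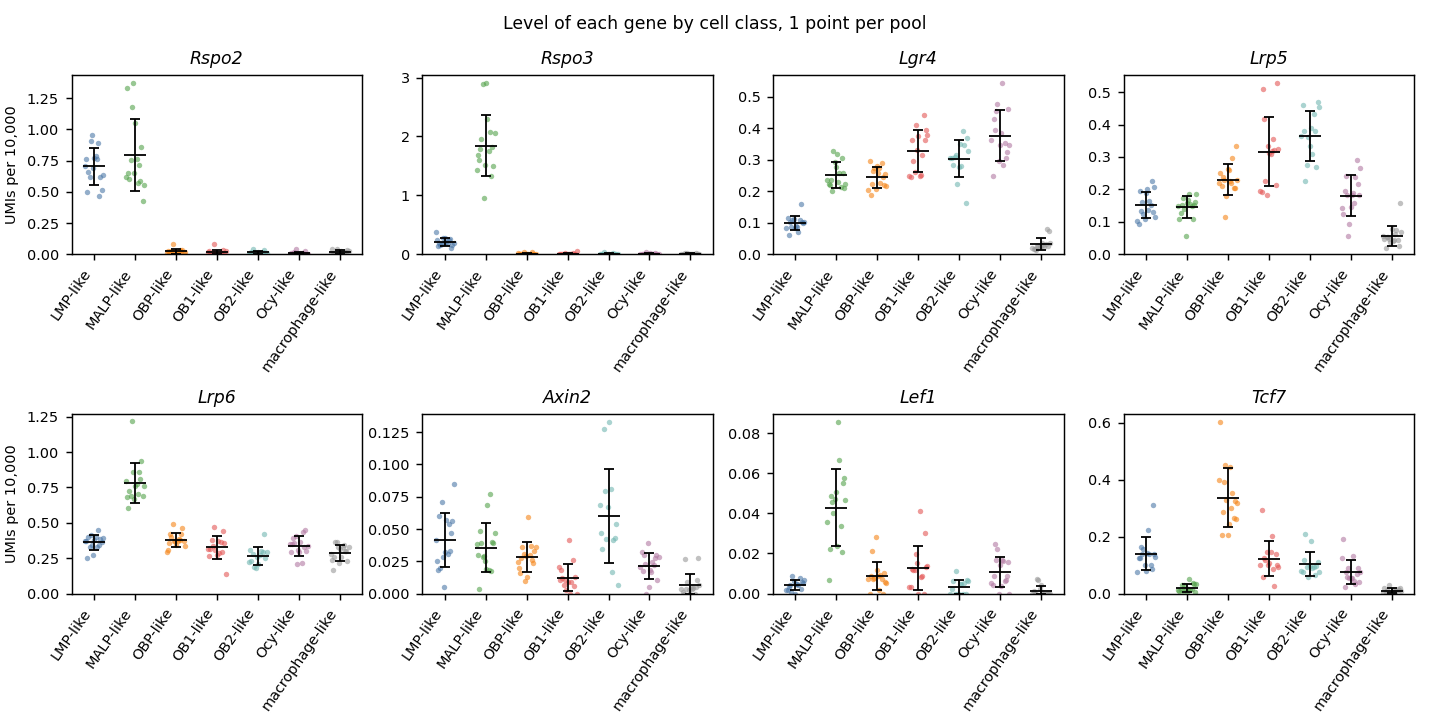
Level of each member (UMIs per 10,000, 1 panel per gene with its own axis) in the 6 mesenchymal classes and, in grey, macrophage-like cells; each point is 1 pool, and the black line and bar are the mean and 1 SD over pools, cut at 0. The R-spondin levels sit near 0 in the 4 osteoblast-lineage classes, *Tcf7* peaks in OBP-like cells and *Lef1* in MALP-like cells.

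R-spondin transcripts were found mainly in the LMP- and MALP-like cells, and in the osteoblast lineage their levels per 10,000 UMIs were low. *Rspo2* (chromosome 15, 43020794 to 43170826, minus strand, GRCm38), which encodes R-spondin 2, was at 0.703 ± 0.145 UMIs per 10,000 in LMP-like cells (lowest 0.468 in pool 13, median 0.700, highest 0.957 in pool 7). In MALP-like cells it was at 0.791 ± 0.287 (lowest 0.423, median 0.682, highest 1.37, again in pool 7). The LMP-like range lay within the MALP-like range: MALP-like cells were higher in 8 of 16 pools and lower in 8, with a log2 fold change of -0.14 ± 0.10 (edgeR quasi-likelihood test, adjusted p = 0.226), whose sign turns when scaled to total counts. In OBP-like cells *Rspo2* was at 0.0226 ± 0.0185, with the lowest pool at 0.00425, the median at 0.0183 and the highest, pool 6, at 0.0837. Every pool had less *Rspo2* in OBP- than in LMP-like cells, with no overlap between the classes, and the log2 fold change was -4.76 ± 0.16 (edgeR quasi-likelihood test, adjusted p = 5.36e-43, 16 of 16 pools). OB1-, OB2- and Ocy-like cells lay at 0.0175, 0.0147 and 0.00955 UMIs per 10,000, from 141, 78 and 32 *Rspo2* UMIs in all. The filter on low counts was set over all classes, so passing it does not show that these counts suffice for a test. Called differences among these low values (OB2- against OB1-like -0.75, adjusted p = 0.0403, Ocy- against OB1-like -1.33, adjusted p = 0.00674, and Ocy- against OBP-like -1.10, adjusted p = 0.0131, lower in 16 of 16 pools, all by edgeR's quasi-likelihood test) concern levels that macrophage-like cells, which are not known as a source of R-spondins, also had (0.0178). The first was lower in 6 of 13 pools only, was not called with total counts (-0.69, adjusted p = 0.0608), among other settings, and turned to 0.81 (adjusted p = 0.598) with limits on UMI counts, and the second was not called with doublets kept (-0.81, adjusted p = 0.0608), with even-numbered markers (-0.57, adjusted p = 0.442) or with limits on UMI counts (-1.02, adjusted p = 0.821). Pool 6 was the highest pool in OBP-, OB1-, OB2-, Ocy- and macrophage-like cells alike.

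*Rspo3* (chromosome 10, 29452416 to 29535867, minus strand), which encodes R-spondin 3, separated the MALP-like cells from every other class. It was at 1.85 ± 0.52 UMIs per 10,000 in MALP-like cells (lowest 0.959 in pool 7, median 1.78, highest 2.91 in pool 9) and at 0.211 ± 0.065 in LMP-like cells (lowest 0.114, median 0.192, highest 0.375 in pool 1). The lowest MALP-like pool was above the highest LMP-like pool, and the difference was 2.88 ± 0.11 on the log2 scale, or 7.34-fold (edgeR quasi-likelihood test, adjusted p = 3.32e-38, 16 of 16 pools). From LMP- to OBP-like cells *Rspo3* fell by 4.21 on the log2 scale (edgeR quasi-likelihood test, adjusted p = 2.02e-31), lower in 16 of 16 pools. The 4 osteoblast-lineage classes lay between 0.00822 (Ocy-like) and 0.0103 (OB1-like), close to the 0.00757 of macrophage-like cells, and none of the 6 differences among them was called by edgeR's test or by DESeq2 (0 at an unadjusted p under 0.05). Each of these classes held only 24 (Ocy-like) to 75 (OBP-like) *Rspo3* UMIs, so the absence of a call says little.

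Shares of cells with a UMI were compared at 1 depth. Each cell was thinned to 4000 UMIs, and shallower cells were left out (2059 LMP-like, 2088 MALP-like, 4310 macrophage-like and 1867 granulocyte-like cells, and 183 to 422 in each osteoblast-lineage class), because median depth ran from 2438 UMIs in granulocyte-like and 4461 in macrophage-like cells to 8309 in MALP-like, 16770 in LMP-like and 21070 in OBP-like cells. At that depth 36.9% ± 5.7 of MALP-like cells had an *Rspo3* UMI (46.5% unthinned) and 6.86% ± 2.08 of LMP-like cells (16% unthinned). For *Rspo2* the shares were 21.4% ± 5.9 and 20.7% ± 3.1 (32.6% and 39.5% unthinned). In the 4 osteoblast-lineage classes thinned shares were between 0.481% and 1.02% for *Rspo2* and between 0.175% and 0.784% for *Rspo3*, against 0.5% and 0.262% in macrophage-like cells and 1.55% and 1.01% in granulocyte-like cells. These osteoblast-lineage shares did not exceed the higher of the background shares and at this depth were not told apart from background. Thinning keeps a smaller part of the UMIs of a deeper cell, so this comparison cannot show that these classes are at background. The folds of both genes against OBP-like cells are imprecise. Unthinned, *Rspo2* was found in 1.70% (Ocy-like) to 4.54% (OBP-like) of osteoblast-lineage cells, against 0.832% of macrophage-like and 2.29% of granulocyte-like cells. For *Rspo3* the unthinned shares were 1.41% (OB2-like) to 1.91% (OBP-like), against 0.374% and 1.35%. Depth differs between these classes, and the part of free RNA in these shares was not tested. Of all *Rspo2* UMIs in the 6 classes, LMP-like cells held 65.3% and MALP-like cells 32.6%, and of all *Rspo3* UMIs MALP-like cells held 79.1% and LMP-like cells 19.9%, while these classes made up 33.2% and 26.7% of the cells.

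**Figure D2:**
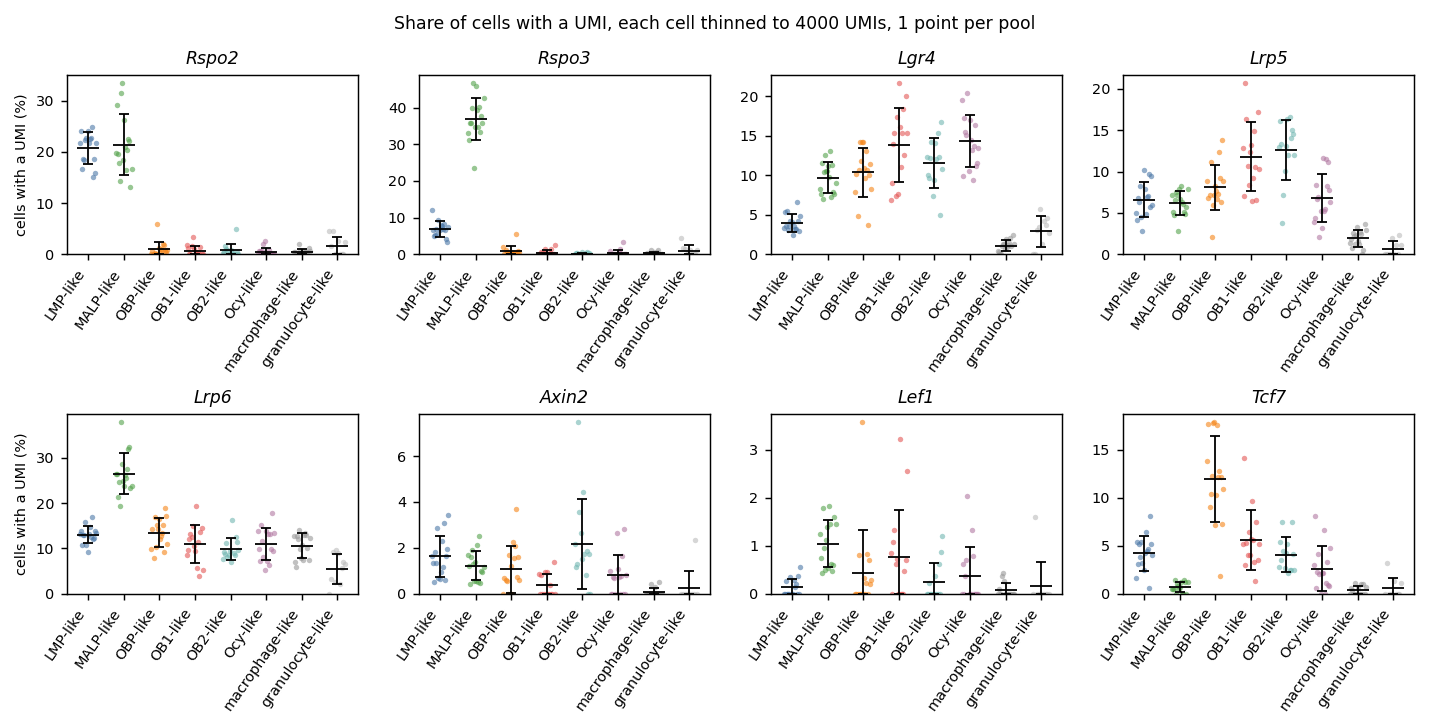
Share of cells (percent) with at least 1 UMI of each member after thinning each cell to 4000 UMIs, by class; each point is 1 pool, and black lines and bars are the mean and 1 SD, cut at 0. The macrophage- and granulocyte-like cells are a background for genes that they do not express, which was not assumed for *Lrp6*. Thinning keeps a smaller part of the UMIs of a deeper cell, so this background cannot give the level of free RNA in the deeper classes. For *Rspo3* MALP-like cells stand at 36.9% against 0.262% in macrophage-like cells.

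Both R-spondins were found together in single cells more often than the product of their shares. In MALP-like cells thinned to 4000 UMIs, 9.72% ± 3.23 of cells had a UMI of both genes, 27.2% had *Rspo3* alone, 11.7% had *Rspo2* alone and 51.5% had neither. The product of the separate shares was 7.83%, and the observed share of both was above it in 13 of 16 pools. In LMP-like cells 2.43% ± 1.09 had both against a product of 1.45%, above it in 16 of 16 pools. The cells of a class share libraries and differ in how far they lie toward the other class, and these shares are a description.

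Cells between LMP and MALP in marker score had the highest *Rspo2*. Cells whose best lineage score was LMP or MALP were sorted into 5 bins by the difference of the scores, which runs from LMP-high cells (8722) to MALP-high cells (6648). *Rspo2* was at 0.612 UMIs per 10,000 at the LMP end, 0.875 in the next bin, 1.35 ± 0.43 in the middle bin (1702 cells, scores within 0.3 of each other), 1.09 in the fourth bin and 0.684 at the MALP end. The middle bin was above both ends in 15 of 16 pools, by 2.26 times the LMP end and 2.09 times the MALP end on average. *Rspo3* took another course, rising from 0.137 through 0.438 to 1.46 in the middle and staying at 1.89 and 1.80 beyond it, so its level in the middle bin was above the MALP end in 4 of 16 pools only. Median depth in the middle bin was 9896 UMIs, between the 18260 of the LMP end and the 8160 of the MALP end. The part of droplets with 1 cell of each kind in the middle bin was not tested.

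**Figure D3:**
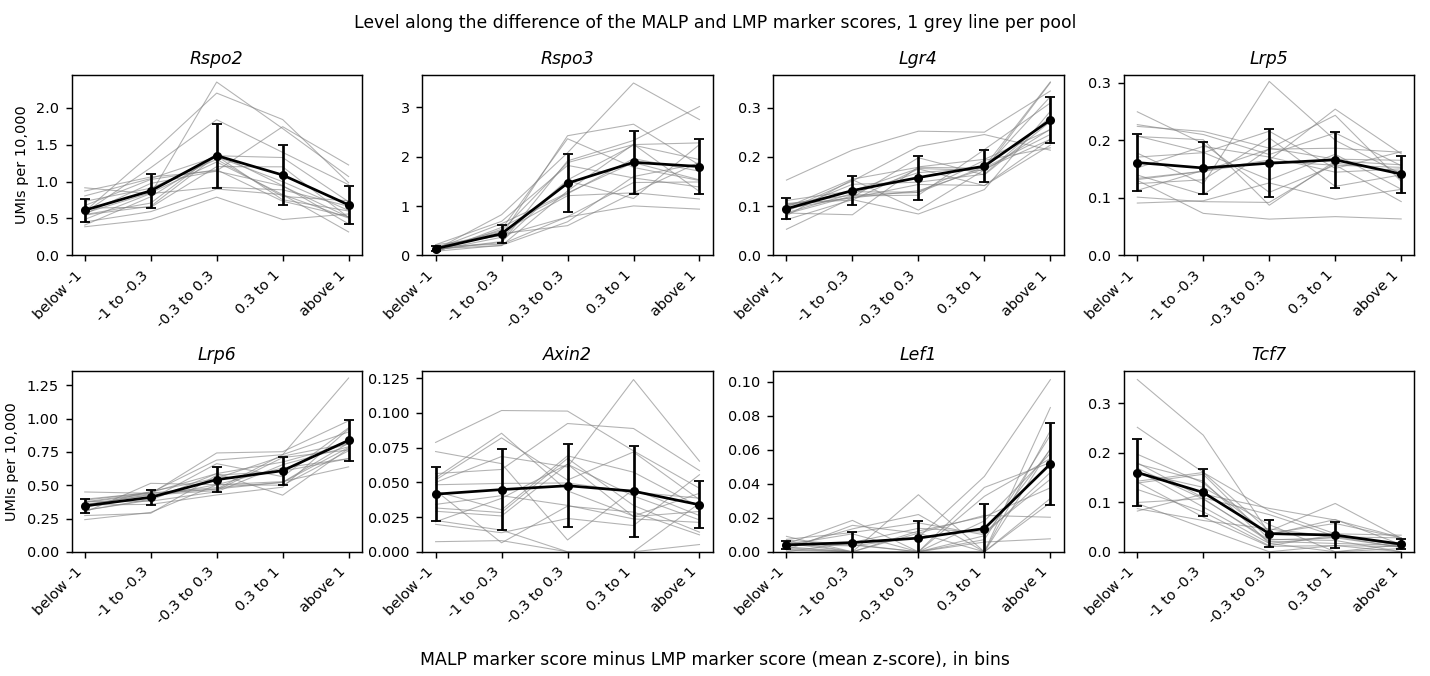
Level of each member (UMIs per 10,000) in 5 bins of the MALP marker score minus the LMP marker score; grey lines are the 16 pools and the black line with bars is the mean and 1 SD, cut at 0. *Rspo2* is highest in the middle bin (1.35 against 0.612 and 0.684 at the ends), *Rspo3*, *Lgr4*, *Lrp6* and *Lef1* are higher at the MALP end and *Tcf7* at the LMP end.

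Among the receptors, *Lgr4* (chromosome 2, 109917647 to 110014257, plus strand), the R-spondin receptor, was lowest in LMP-like cells and highest in the OB1-, OB2- and Ocy-like classes. Its level was 0.0981 ± 0.0227 UMIs per 10,000 in LMP-like cells (lowest 0.0603, median 0.100, highest 0.161 in pool 13) and 0.376 ± 0.080 in Ocy-like cells (lowest 0.249, median 0.359, highest 0.544), with no overlap between the 2 classes. OBP-like cells were at 0.244 ± 0.033, OB1-like at 0.328 ± 0.067, OB2-like at 0.303 ± 0.059 and MALP-like cells at 0.251 ± 0.041. Each of these classes was above LMP-like cells in every pool. The log2 fold change from LMP- to OBP-like cells was 1.67 ± 0.09 (edgeR quasi-likelihood test, adjusted p = 7.88e-31, 16 of 16 pools) and from LMP- to MALP-like cells 1.12 ± 0.08 (adjusted p = 7.87e-21 by the same edgeR test, 16 of 16 pools). *Lgr4* rose again from OBP- to OB1-like cells by 0.63 ± 0.09 (edgeR quasi-likelihood test, adjusted p = 3.36e-09, 12 of 15 pools), while the neighbors Ocy- and OB1-like (adjusted p = 0.605) and OB1- and OB2-like (adjusted p = 0.109, both edgeR) were not called different. Between MALP- and OBP-like cells the direction depends on the scale: the TMM-scaled difference was -0.55 ± 0.08 (edgeR quasi-likelihood test, adjusted p = 1.37e-08), but scaled to total counts it was 0.04 (adjusted p = 0.649), and MALP-like cells were higher per 10,000 UMIs in 10 of 16 pools. Thinned shares of cells with an *Lgr4* UMI were between 3.99% (LMP-like) and 14.3% (Ocy-like), against 1.08% in macrophage-like and 2.89% in granulocyte-like cells.

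*Lrp5* (chromosome 19, 3584828 to 3686564, minus strand) encodes a co-receptor and was highest in the osteoblast classes. It was at 0.365 ± 0.076 UMIs per 10,000 in OB2-like cells (lowest 0.225, median 0.374, highest 0.471) and 0.316 ± 0.107 in OB1-like cells (lowest 0.184, median 0.318, highest 0.529), which were not called different (edgeR quasi-likelihood test, adjusted p = 0.18). OBP-like cells were at 0.230 ± 0.049, Ocy-like at 0.181 ± 0.062, LMP-like at 0.152 ± 0.041 and MALP-like cells at 0.146 ± 0.033. *Lrp5* rose from LMP- to OBP-like cells by 0.94 ± 0.10 on the log2 scale (edgeR quasi-likelihood test, adjusted p = 2.44e-13, 14 of 16 pools) and from OBP- to OB1-like cells by 0.61 ± 0.11 (adjusted p = 2.32e-06, edgeR, 12 of 15 pools). It was lower in Ocy- than in OB1-like cells by a log2 fold change of -0.85 ± 0.12 (edgeR quasi-likelihood test, adjusted p = 2.04e-08, lower in 14 of 15 pools). The pools kept some of their order across classes: pool 6 was the lowest in all 4 osteoblast-lineage classes (0.0554 in Ocy-like cells) and pool 17 the highest in OBP-, OB1- and OB2-like cells. Between MALP- and LMP-like cells the called difference was -0.28 ± 0.11 (edgeR quasi-likelihood test, adjusted p = 0.0163), but it was lower in only 8 of 16 pools per 10,000 UMIs, was -0.01 when scaled to total counts and was not called without pool 13 (-0.22, adjusted p = 0.0574). Thinned shares of cells with an *Lrp5* UMI ran from 6.23% (MALP-like) to 12.7% (OB2-like), above the 1.92% of macrophage-like and 0.646% of granulocyte-like cells.

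*Lrp6* (chromosome 6, 134446476 to 134566965, minus strand), the other co-receptor, had its highest level in MALP-like cells, at 0.783 ± 0.143 UMIs per 10,000 (lowest 0.608, median 0.759, highest 1.22 in pool 6). LMP-like cells were at 0.361 ± 0.051 (lowest 0.248, median 0.373, highest 0.446), and the classes did not overlap. The difference was 0.85 ± 0.06 on the log2 scale (edgeR quasi-likelihood test, adjusted p = 6.54e-23, 16 of 16 pools). The osteoblast-lineage classes ran from 0.265 ± 0.061 (OB2-like) to 0.379 ± 0.052 (OBP-like), and OB2-like cells were below OB1-like cells by a log2 fold change of -0.41 ± 0.07 (edgeR quasi-likelihood test, adjusted p = 1.72e-06, lower in 12 of 13 pools). OBP-like cells were called above LMP-like cells (0.39 ± 0.06, edgeR quasi-likelihood test, adjusted p = 2.99e-08), but scaled to total counts the difference was 0.06 (adjusted p = 0.38). OB1- and Ocy-like cells were above LMP-like cells by 0.41 and 0.32 on the TMM scale, and the sign turned to -0.13 and -0.10 with total counts. *Lrp6* is expressed widely, and 10.6% of macrophage-like cells had a UMI after thinning, against 26.5% ± 4.5 of MALP-like cells and 9.81% to 13.4% of the other 5 classes.

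**Figure D4:**
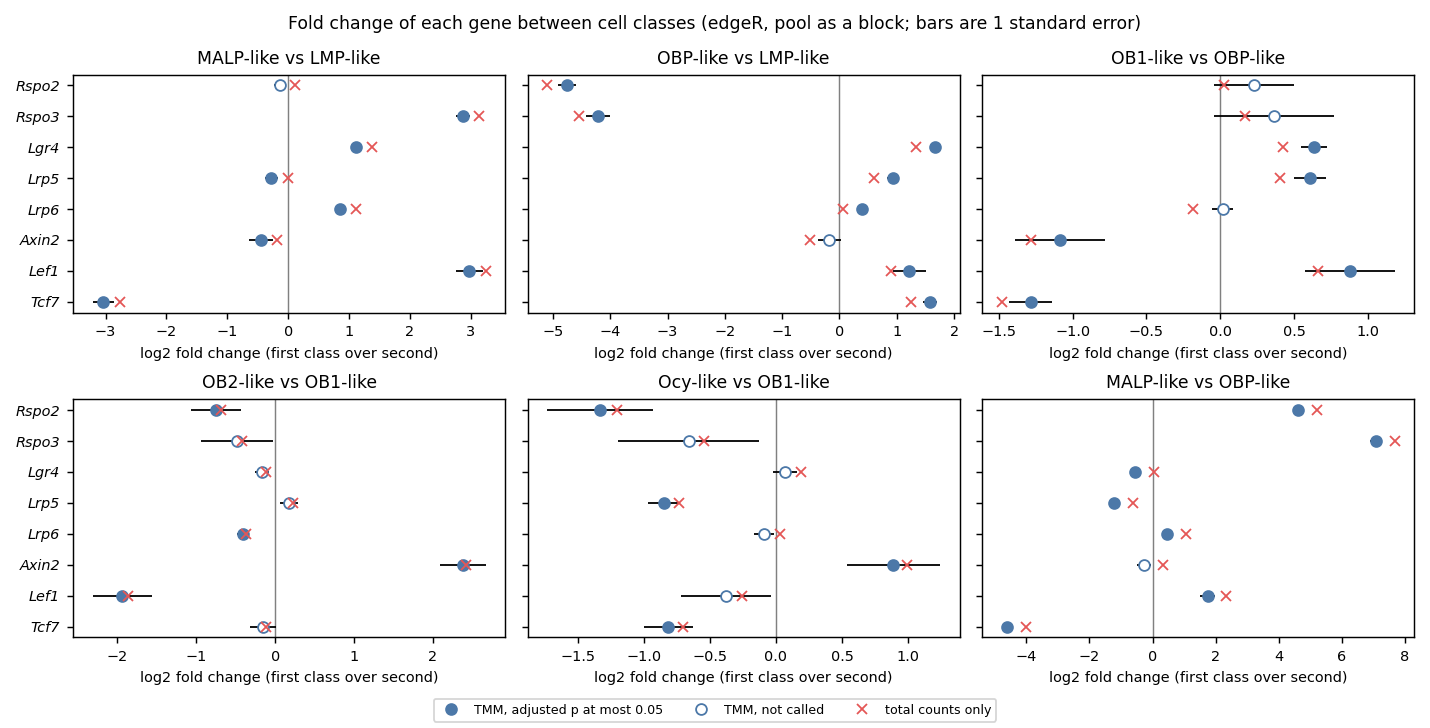
Log2 fold change of each member in the 6 main comparisons of classes. Circles are on the TMM scale with 1 approximate SE, derived from the fold and its F value, which can be too small for large folds. Filled circles have an adjusted p of at most 0.05 by edgeR's quasi-likelihood test, and red crosses give the same fit scaled to total counts. Both R-spondins are lower in OBP- than in LMP-like cells (*Rspo2* -4.76, *Rspo3* -4.21) and higher in MALP- than in OBP-like cells (4.62 and 7.09), and *Axin2*, *Lef1* and *Tcf7* move in different directions within the same comparison.

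The readout *Axin2* and the genes of the DNA-binding proteins, *Tcf7* and *Lef1*, did not share one order of classes. *Axin2* (chromosome 11, 108920349 to 108950783, plus strand) had low counts everywhere, and its highest level was in OB2-like cells at 0.0601 ± 0.0364 UMIs per 10,000 (lowest 0.00632 in pool 18, median 0.0505, highest 0.133 in pool 10). OB1-like cells were the lowest class at 0.0124 ± 0.0108, with 2 pools at 0, a median of 0.0105 and the highest pool, again pool 10, at 0.0412. OB2-like cells were higher in 13 of 13 pools with both classes, by 2.38 ± 0.29 on the log2 scale, or 5.2-fold (edgeR quasi-likelihood test, adjusted p = 2.87e-11), although the ranges over pools overlapped. LMP-like cells were at 0.0415 ± 0.0211, MALP-like at 0.0356 ± 0.0188, OBP-like at 0.0281 ± 0.0117 and Ocy-like cells at 0.0215 ± 0.0102. *Axin2* fell from OBP- to OB1-like cells, with a log2 fold change of -1.09 ± 0.31 (edgeR quasi-likelihood test, adjusted p = 0.00198, 14 of 15 pools), a difference that was -0.26 (adjusted p = 0.485) when the even-numbered markers of each list alone set the classes. It was not called different between OBP- and LMP-like cells (-0.18 ± 0.20, adjusted p = 0.437, edgeR), while scaled to total counts that difference was -0.52 (adjusted p = 0.0193). The called differences of MALP- against LMP-like cells (-0.45 ± 0.20, adjusted p = 0.0367) and of Ocy- against OB1-like cells (0.89 ± 0.35, adjusted p = 0.0435, both by edgeR's quasi-likelihood test) were near the threshold. The first was lower in 10 of 16 pools, was -0.19 (adjusted p = 0.386) when scaled to total counts, and was not called without pool 13 (-0.42, adjusted p = 0.058) or without the pool as a block (-0.45, adjusted p = 0.0712), and the second turned to -0.13 (adjusted p = 0.883) with the even-numbered markers. The thinned share of cells with an *Axin2* UMI was 2.17% ± 1.95 in OB2-like and 1.62% ± 0.91 in LMP-like cells against 0.0775% in macrophage-like and 0.233% in granulocyte-like cells, while the 0.353% of OB1-like cells was close to the latter, so the folds against OB1-like cells are imprecise.

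*Tcf7* (chromosome 11, 52252371 to 52283014, minus strand), which encodes the DNA-binding protein TCF1, marked the OBP-like class without having been used to gate it. It was at 0.336 ± 0.104 UMIs per 10,000 there (lowest 0.205 in pool 3, median 0.321, highest 0.601 in pool 2). LMP-like cells were at 0.140 ± 0.058 (lowest 0.0756, median 0.134, highest 0.309 in pool 14), OB1-like at 0.122 ± 0.062, OB2-like at 0.103 ± 0.043, Ocy-like at 0.0759 ± 0.0432 and MALP-like cells at 0.0202 ± 0.0132. OBP-like cells were above LMP-like cells in 16 of 16 pools, by 1.57 ± 0.12 on the log2 scale (edgeR quasi-likelihood test, adjusted p = 3.95e-20) although the ranges over pools overlapped, and above OB1-like cells in 15 of 15 pools, the log2 fold change from OBP- to OB1-like being -1.28 ± 0.15 (adjusted p = 4.96e-12 by the same edgeR test). MALP-like cells had less *Tcf7* than LMP-like cells in 16 of 16 pools without overlap, with a log2 fold change of -3.03 ± 0.18 (edgeR quasi-likelihood test, adjusted p = 3.95e-27). LMP- and OB1-like cells (adjusted p = 0.0642) and OB1- and OB2-like cells (adjusted p = 0.444, both edgeR) were neighbors that were not called different. After thinning, 11.9% ± 4.5 of OBP-like cells had a *Tcf7* UMI, 5.57% of OB1-like and 0.673% of MALP-like cells, against 0.337% in macrophage-like, 0.559% in granulocyte-like and 8.53% in T-cell-like cells, which are known to express the gene. The MALP-like share was near the granulocyte-like share.

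*Lef1* (chromosome 3, 131110471 to 131224356, plus strand), the relative of *Tcf7* that binds the same DNA sequence, was highest in MALP-like cells, where *Tcf7* was lowest. Its level was 0.0429 ± 0.0193 UMIs per 10,000 in MALP-like cells (lowest 0.00694 in pool 2, median 0.0463, highest 0.0853 in pool 10) and 0.00424 ± 0.00247 in LMP-like cells. MALP-like cells were higher in 16 of 16 pools, by 2.97 ± 0.22 on the log2 scale (edgeR quasi-likelihood test, adjusted p = 6.67e-21). OB1-like cells were at 0.0129 ± 0.0110, Ocy-like at 0.0106 ± 0.0076, OBP-like at 0.00877 ± 0.00719 and OB2-like cells at 0.00337, with 6 of their 14 pools at 0. *Lef1* was higher in OBP- than in LMP-like cells by 1.22 ± 0.29 on the log2 scale (edgeR quasi-likelihood test, adjusted p = 0.000113, 10 of 16 pools), and it was lower in OB2- than in OB1-like cells by a log2 fold change of -1.94 ± 0.38 (edgeR quasi-likelihood test, adjusted p = 8.97e-06). Fits of only the 2 classes gave no value for either difference, so both rest on the joint fit, in which *Lef1* is highest in MALP-like cells, and on few UMIs. From OBP- to OB1-like cells it rose by 0.88 ± 0.30 (adjusted p = 0.0123, edgeR), which was not called with run 2 counts (0.58, adjusted p = 0.143), without the pool as a block (0.74, adjusted p = 0.0806) or with total counts (0.66, adjusted p = 0.0529). All these values are low: after thinning, 1.04% ± 0.50 of MALP-like cells had a *Lef1* UMI, against 0.0718% in macrophage-like and 0.159% in granulocyte-like cells and 17.8% in T-cell-like cells, in which the gene is known to be high. The part of T-cell RNA in the MALP-like values was not tested. The 0.133% of LMP-like and 0.234% of OB2-like cells lay near the background shares, so a fold against them is imprecise.

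Along the score from LMP to MALP the readouts parted in the same way. *Tcf7* fell from 0.160 UMIs per 10,000 at the LMP end to 0.0367 in the middle bin and 0.0155 at the MALP end, and the LMP end was above the MALP end in 16 of 16 pools. *Lef1* was at 0.00403, 0.00542, 0.00806, 0.0137 and 0.0517 over the 5 bins, with the last above the first in 16 of 16 pools. *Axin2* stayed between 0.0338 and 0.0476 and *Lrp5* between 0.141 and 0.166, with the MALP end above the LMP end in 5 and 7 of 16 pools, whereas *Lgr4* went from 0.0947 to 0.275 and *Lrp6* from 0.345 to 0.838, both in 16 of 16 pools. These levels are per 10,000 UMIs of a bin, and no test was made of them.

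For *Axin2* and *Lgr4*, a readout and a receptor, the 250 bases before the RefSeq transcript start are shown (GRCm38.p6, 5′ to 3′ on the plus strand, chr11:108920099-108920348 and chr2:109917397-109917646), because the TCF and LEF proteins act on DNA and the letters they are known to bind can be looked for here.
Axin2: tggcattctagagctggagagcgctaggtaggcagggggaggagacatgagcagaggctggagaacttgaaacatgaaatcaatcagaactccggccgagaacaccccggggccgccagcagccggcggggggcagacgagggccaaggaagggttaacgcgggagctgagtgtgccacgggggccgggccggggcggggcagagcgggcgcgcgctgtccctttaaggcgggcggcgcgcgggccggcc
Lgr4: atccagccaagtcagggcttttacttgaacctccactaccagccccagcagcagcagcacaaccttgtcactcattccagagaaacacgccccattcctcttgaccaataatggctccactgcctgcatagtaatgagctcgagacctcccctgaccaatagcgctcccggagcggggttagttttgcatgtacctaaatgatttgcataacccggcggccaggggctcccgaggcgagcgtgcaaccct
Capitals would mark CTTTGAT or CTTTGAA on either strand, forms of the sequence that TCF7 and LEF1 bind, and neither window has one. RefSeq windows of 250 bases before to 50 bases after a start were at hand for 4 of the 8 members (*Lgr4*, *Axin2*, *Lef1* and *Tcf7*), 8 windows in all, and 0 of the 8 held either motif, against 2842 of 32851 windows of all genes (8.65%). This says only that these letters are not in these windows.

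The spread of the UMI counts over pools was set against counting error by Pearson's chi-square for 1 shared level, divided by its degrees of freedom, which counting error alone puts near 1. This ratio was 93.1 for *Rspo3* and 51.1 for *Rspo2* in MALP-like cells, 27.6 for *Rspo2* and 28.4 for *Tcf7* in LMP-like cells and 12.4 for *Tcf7* in OBP-like cells. For *Lrp6* it was 18.4 in MALP-like cells, and for *Axin2* 11.2 in LMP-like cells. It was lower for *Lgr4* (2.03 to 4.24 over the classes) and for *Axin2* in Ocy-like cells (0.774), where the spread did not exceed counting error. A pool is a mixture of several mice, and differences between mice, between wells and between library preparations cannot be told apart here.

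How the members varied together over pools was tested in 6 relations, of which none passed the threshold. *Rspo2* and *Rspo3* in MALP-like cells had r = 0.133 (permutation p = 0.625) and rho = 0.265 (permutation p = 0.320) over 16 pools, with adjusted p = 0.625 and 0.384. Without pools 7 and 2, the farthest from the median of *Rspo2*, r was 0.782, so the value over all pools rests on those 2. In OBP-like cells *Axin2* with *Lef1* had r = -0.431 (permutation p = 0.0944, adjusted 0.283) and rho = -0.381 (permutation p = 0.146, adjusted 0.347), and r = 0.06 without 2 pools. *Axin2* with *Tcf7* there had r = 0.270 (permutation p = 0.310, adjusted 0.466) and rho = 0.268 (permutation p = 0.316, adjusted 0.384), and 0.2 without 2 pools. *Lef1* with *Tcf7* had r = -0.365 (permutation p = 0.164, adjusted 0.328) and rho = -0.369 (permutation p = 0.157, adjusted 0.347), and -0.495 without 2 pools. The summed R-spondin level of all mesenchymal cells of a pool had r = 0.434 with *Axin2* of LMP-like cells (permutation p = 0.0919, adjusted 0.283, and rho = 0.359, permutation p = 0.174, adjusted 0.347), and 0.240 without 2 pools. With *Axin2* of OBP-like cells it had r = -0.151 (permutation p = 0.578, adjusted 0.625) and rho = -0.165 (permutation p = 0.541, adjusted 0.541), and -0.434 without 2 pools.

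Genes most like each member in pattern were those with the highest Pearson r of log2(CPM + 1) over the 93 sums of a pool and a class, among 9411 genes with a mean of at least 5 CPM. The points share pools and classes, so r mainly follows the differences between classes. *Rspo2* was most like *Vgll3* (0.969), *Ogn* (0.965) and *Lmcd1* (0.963), and *Rspo3* most like *Kitl* (0.977), which is a marker of the MALP gate, *Arrdc4* (0.976) and *Shc1* (0.976). *Lgr4* was most like *Antxr2* (0.852), *Ppp2r5a* (0.846) and *Mical3* (0.846), *Lrp5* most like *Edem1* (0.754), *2310039H08Rik* (0.732) and *1700003F12Rik* (0.730), and *Lrp6* most like *Ubr1* (0.892), *Mut* (0.887) and *Ralgapa1* (0.887). For *Tcf7* the genes were *Tubb3* (0.889), *Aqp1* (0.882) and *Smpdl3b* (0.881), for *Lef1* *Chpt1* (0.817), *Sik2* (0.799) and *Pnpla2* (0.779), and for *Axin2* *Ube2z* (0.668), *Cep170* (0.652) and *Setd5* (0.639). *Axin2* had the lowest likeness. *Axin2* and *Lef1* had means of 3.28 and 1.40 CPM, below the minimum, and could not themselves be on a list.

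The rest of the pathway was followed in a list of 74 further Wnt genes in 6 groups, of which 54 passed the filter on low counts. Among those that did not were *Rspo1* (9 UMIs in all sums), *Rspo4* (1 UMI) and *Wnt3a* (0 UMIs), so *Rspo2* and *Rspo3* were the R-spondins with countable RNA in these classes. Between MALP- and LMP-like cells 23 of the 54 were higher, 22 lower and 9 not called, with a median log2 fold change of -0.02 against -0.00216 over all genes. Among the relatives of the members, *Rnf43* (-2.40), which encodes a ligase that R-spondins restrain, and the R-spondin receptors *Lgr6* (-1.26) and *Lgr5* (-1.22) were lower in MALP-like cells. Of the group of Wnt ligands and genes of their release, 2 of 8 tested were higher and 6 lower: *Wnt4* went from 0.206 to 2.27 UMIs per 10,000 (3.26 on the log2 scale, 16 of 16 pools) and *Wnt11* rose by 3.13, while *Wnt10b* was lower (-3.32, 16 of 16 pools). *Fzd4*, a Frizzled receptor, went from 0.0472 to 0.989 UMIs per 10,000 (4.18 on the log2 scale, adjusted p = 1.50e-49, edgeR quasi-likelihood test), *Fzd1* was higher (1.27) and the Wnt5a receptor gene *Ror2* lower (-1.34). Of 10 nuclear partners 9 were higher and none was lower by edgeR, where 73.1% of all genes were called and 4268 of 11861 were higher, among them the corepressor *Tle1* (1.33), *Tcf7l2* (1.32), which encodes a further TCF, and *Tle2* (0.88). In the cytoplasmic relay 6 of 15 were higher, such as *Gsk3b* (0.43), and 5 lower, such as *Dvl1* (-0.42) and *Ctnnb1* (-0.40), which encodes β-catenin. Of 6 further readouts 4 were lower, led by the cell cycle gene *Ccnd1* (-2.83) and *Notum* (-2.31), which encodes an enzyme that inactivates Wnts, and 1 was higher, the feedback inhibitor *Nkd1* (1.08).

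From LMP- to OBP-like cells 15 of the 54 were higher, 30 lower and 9 not called, with a median of -0.22 against -0.01 over all genes, of which 73.9% were called and 4429 were lower. Of the Frizzled and other receptors 9 of 11 were lower and 2 higher, with *Ror1* at -3.02, *Fzd2* at -1.49 and *Fzd9*, one of the higher ones, at 2.21. *Lgr5* was lower (-2.61) while *Rnf43* (1.64) and *Lgr6* (1.16) were higher. Of the ligand group 5 of 8 were lower, among them *Wnt5a* (-1.36), *Wnt11* (-1.24) and *Porcn* (-1.26), whose enzyme attaches the lipid that Wnts need for release. *Notum* was higher (2.19, 0.173 against 0.0496 UMIs per 10,000, 16 of 16 pools) and *Nkd2* (-1.80) and *Nkd1* (-1.25) were lower, so the readouts differed in direction here as well. In the nuclear group 3 were higher, *Tle3* by 1.19, and 6 lower, such as *Tle4* (-1.15) and *Tle2* (-1.13), and in the relay *Amer1* was lower (-0.99) and *Dvl1* (0.74) and *Dvl3* (0.63) higher. Between MALP- and OBP-like cells 25 of 54 were higher, 17 lower and 12 not called (80.7% of all genes called, median 0.14 against 0.02 over all genes), with *Fzd4* at 5.65, *Wnt11* at 4.37 and *Ror1* at 3.84, and with *Notum* at -4.50, *Rnf43* at -4.04 and *Wnt10b* at -3.82. In that comparison 8 of 10 nuclear partners were higher, *Tle2* by 2.01, *Tle1* by 1.98 and *Tle4* by 1.76. Some of these folds rest on very low levels. *Wnt11* and *Ror1* were at 0.00765 and 0.00362 UMIs per 10,000 in OBP-like cells, and *Rnf43* and *Wnt10b* at 0.00273 and 0.00638 in MALP-like cells. No background was set for these 4 genes, so their folds that involve these classes, also against LMP-like cells, are imprecise.

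Within the osteoblast lineage, 17 of the 54 were higher, 13 lower and 24 not called from OBP- to OB1-like cells, where 50.1% of all genes were called, and the median was 0.07 against -0.00597 over all genes. *Lgr6* rose by 1.84 (0.215 against 0.0635 UMIs per 10,000, 15 of 15 pools), *Tcf7l2* by 1.26, *Wnt4* by 1.22, *Fzd4* by 1.18 and *Tcf7l1* by 1.06, while *Wnt5a* (-1.56) and *Ror2* (-0.89) were lower, and 4 of 6 readouts were lower, with *Tnfrsf19* at -1.50, *Nkd2* at -1.44 and *Ccnd1* at -0.68. OB2- against OB1-like cells gave 21 higher, 14 lower and 19 not called (56.1% of all genes called, median 0.09 against -0.02 over all genes): *Fzd7* (2.11), *Wnt5a* (1.75), *Fzd1* (1.66), *Wnt11* (1.61), *Ror2* (1.41), *Lgr6* (0.66) and *Notum* (0.53) were higher and *Wnt4* (-1.58), *Ccnd1* (-1.52), *Tcf7l2* (-0.91), *Znrf3* (-0.82), *Ctnnb1* (-0.55) and *Myc* (-0.47) lower. Beside the higher *Axin2* of OB2-like cells there was thus a higher *Notum* and a lower *Ccnd1* and *Myc*. Ocy- against OB1-like cells gave 13 higher, 14 lower and 27 not called (32.9% of all genes called, median -0.02 against -0.00597 over all genes), and none of the 6 further readouts was higher while 5 were lower, led by *Notum* (-1.43), *Ccnd1* (-1.22) and *Nkd2* (-1.01). *Wnt5b* rose there by 2.57, *Fzd2* by 1.65 and *Lgr6* by 1.31, and *Lgr6* reached 0.571 UMIs per 10,000 in Ocy-like cells, the class in which *Lgr4* was also highest per 10,000 UMIs. All of these called values are from the same edgeR fit, and of the named genes none changed direction with total counts or with the size factors of DESeq2. The named genes of the Wnt list were not followed under the other alternatives, such as other gates, run 2 or limits on UMI counts. *Wnt11* was at 0.00487 UMIs per 10,000 in OB1-like cells, so its fold against them is imprecise.

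The split between higher and lower follows the scaling. With total counts the 54 genes gave 28 higher and 18 lower for MALP- against LMP-like cells, 8 and 40 for OBP- against LMP-like, 7 and 21 for OB1- against OBP-like, 21 and 13 for OB2- against OB1-like, 19 and 12 for Ocy- against OB1-like and 39 and 11 for MALP- against OBP-like cells. Over all genes called, the share that was higher moved in the same order from 49.2% to 72.6%, from 49.4% to 24.5%, from 49.5% to 21.9%, from 48.2% to 54.2%, from 46.0% to 72.4% and from 51.0% to 79.0%. Some counts within a group moved too. With total counts the cytoplasmic relay gave 10 higher and 2 lower for MALP- against LMP-like cells. The nuclear partners gave 1 higher and 7 lower for OBP- against LMP-like cells, with total counts and with the size factors of DESeq2 alike. Other counts did not move, such as the 9 of 11 receptors lower in OBP- than in LMP-like cells.

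**Figure D5:**
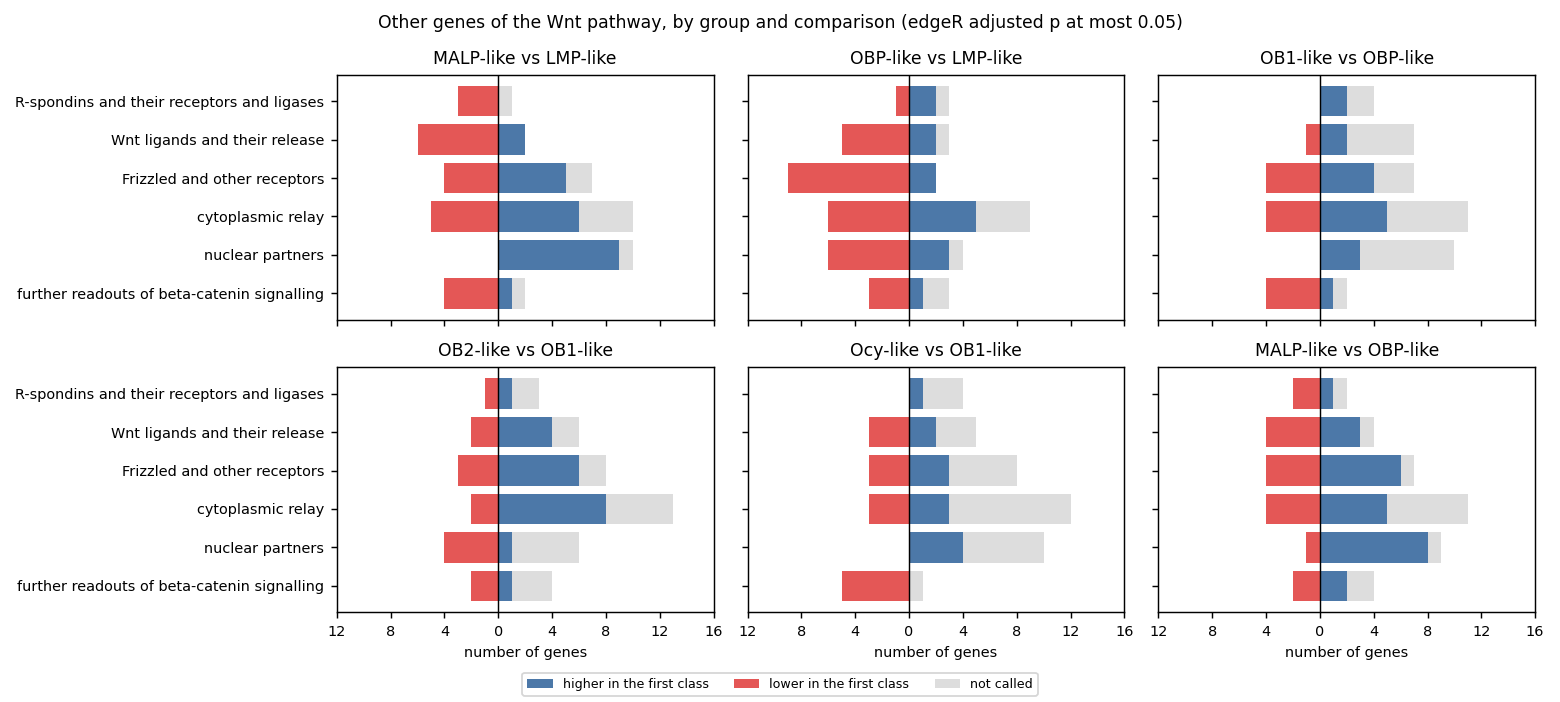
Number of genes of the further Wnt list (54 tested, 6 groups) called higher (blue, to the right of 0), called lower (red, to the left) or not called (grey, beyond the blue) in each of the 6 main comparisons. In MALP- against LMP-like cells 9 of 10 nuclear partners were higher, and in OBP- against LMP-like cells 9 of 11 receptors were lower.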

How the data were processed

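scRNA-seq libraries (10x 3′ kit) of 16 pools were sequenced in 2 runs, 32 samples. Per the submitters' processing notes, the authors used Cell Ranger 5.0.0 and mm10, and deposited raw counts (whole UMIs per gene and barcode, not normalized). Run 1 was used, since run 2 holds the same droplets. Cells with 400 to 6200 detected genes and at most 10% mitochondrial, 20% *Rpl* and 15% *Rps* UMIs were kept. The study's methods word the limits of 400 and 6200 as reads, to which UMI counts, an alternative here, are nearer in wording than detected genes. An upper limit of 6200 UMIs lies below the median depth of every mesenchymal class, however. Doublets (in number set by each pool's barcodes, 5.90% of kept cells in all) were removed by score. In a test on droplets of pool 1 with added doublets of a leukocyte and a stromal droplet, 60.0% of the doublets called were added ones. Doublets of LMP- with MALP-like cells were not added in that test. Each cell took the class with the highest mean z-score of its markers (at least 0.5 and 0.3 above the next, and 0.3 and 0.2 within the osteogenic cells); 22863 cells had no lineage and 6692 osteogenic cells no class. The scoring rule was chosen after seeing the data, and the members and lists were chosen with earlier results of these data known. Classes were rebuilt here, so differences from the study may come from them.

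UMIs were summed per pool and class (at least 20 cells) and fitted with edgeR 4.0.16 (TMM, filterByExpr, quasi-likelihood F test, pool as block; call at adjusted p of 0.05 over 11861 genes). In data simulated for MALP- against LMP-like cells over 11861 genes, 100% of 200 genes changed by 1 on the log2 scale were recovered and 6.1% of calls were unchanged genes. All other genes were left equal there, whereas 73.1% of genes were called in the real comparison, so the simulation gives no error rate for these data. The pairing comes from the shared pool: deviations of same-pool sums correlated with medians of 0.221 to 0.442 over the 6 comparisons (lowest 0.0743), against -0.0375 to -0.0126 for other pools. Relations over pools used log2(UMIs per 10,000 + 0.01) and 100000 permutations, two-sided. In each comparison up to 3 called genes of a Wnt group with the largest change could be named. Precision is limited by UMIs per class and pool where counts are low. Where the spread between pools is above counting error it is limited by that spread, as for *Rspo3* in MALP-like cells (SD 0.522 against 0.0688 from counting). With the pool as a block, edgeR's p-values measure the spread over pools of the differences between classes, with 1 estimate shared by the 6 classes. Gene positions are from GENCODE M21 and promoters from RefSeq. Alternatives were other scalings, no low-count filter, DESeq2 1.42.0, no block, fits of 2 classes, run 2, doublets kept, limits on UMI counts, a stricter gate, odd- or even-numbered markers, 50 cells, and leaving out pool 13.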

Additional observations from a re-analysis of the deposited data

How the results depend on the processing

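The 48 comparisons of a member in the 6 main pairs of classes were repeated under 14 alternatives, of which 3 gave a value for fewer than 48 (42 with even-numbered markers, 37 in fits of 2 classes, 30 with limits on UMI counts). Of 34 called, 17 kept their direction and call under every alternative that gave them a value, and 24 did so with limits on UMI counts set aside, as did 9 of 14 not called. Limits of 400 and 6200 were also set on UMI counts in place of detected genes, which is nearer only in wording to limits given as reads. This left 9143 mesenchymal cells in 74 sums of a pool and a class. Fewer cells follow by construction, since 6200 UMIs is below the median depth of every mesenchymal class (8309 in MALP-like to 21070 in OBP-like cells). The counts that follow need not be those that the study's own filter would give. The genes called were then 2426 (MALP- against LMP-like), 1638 (OBP- against LMP-like), 283 (OB1- against OBP-like), 331 (OB2- against OB1-like), 80 (Ocy- against OB1-like) and 2537 (MALP- against OBP-like), and 30 member differences over all pairs of classes were called in place of 91 of 120, with no value for *Axin2*, *Lef1* and *Tcf7*, which had 10, 12 and 12 of the 91. *Rspo2* in OB2- against OB1-like cells turned to 0.81 (adjusted p = 0.598, edgeR) and *Lrp6* in OBP- against LMP-like cells to -0.012 (adjusted p = 0.983, edgeR); 2 relations in OBP-like cells gave no value, since *Lef1* had no UMI there. With even-numbered markers 1452 genes in place of 3903 differed between Ocy- and OB1-like cells, *Axin2* turned to -0.13 (adjusted p = 0.883, edgeR) and *Tcf7* was not called there (adjusted p = 0.145, edgeR); the cause was not tested. With total counts *Lgr4* in MALP- against OBP-like cells turned to 0.041 (adjusted p = 0.649, edgeR) and *Lrp6* in OB1- against OBP-like cells to -0.19 (adjusted p = 0.02, edgeR). Fits with no replicate block (pool left out) called 88 of the 120 member differences, and without the pairing *Axin2* in MALP- against LMP-like and *Lef1* in OB1- against OBP-like cells were lost. *Rspo2* in OB2- against OB1-like cells was not called under 5 further alternatives. The share of MALP-like cells with an *Rspo3* UMI was 22.6% thinned to 2000 UMIs and 46.5% unthinned, against 36.9%. No relation over pools passed the threshold under any alternative that gave a value. At this depth a member other than *Lrp6* whose thinned share was at or below that of macrophage- or granulocyte-like cells was not told apart from background. This does not show that it was at background, since depth differs between the classes.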
